A study of Mus musculus with 32 samples.

Results

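The data describe 38 imprinted genes in mouse embryonic stem cells (ESCs), among 51826 genes of 1 count table that held 32 RNA-seq libraries in 11 conditions. The genes were listed by name, without regard to their levels here, and every one was found in the table: 16 are known as maternally expressed, 21 as paternally expressed, and *Gnas* gives transcripts of both kinds. They fall in 19 imprinted clusters or lone loci. All cells carried a destabilised GFP reporter at *Rex1* (the RGd2 line), so the controls were reporter cells as well. RGd2 cells were grown in 2i, which combines the GSK3 inhibitor CHIR99021 with the MEK inhibitor PD0325901; for 5 passages in 2i (2i-p5); for 2 passages with CHIR99021 alone (CHp2); or for 16 h or 72 h in N2B27 medium after removal of 2i (N16h and N72h). *Rbpj*-KO and *Etv5*-KO cells were sampled in 2i and at N16h, cells without both *Etv5* and *Rbpj* (ER-dKO) after 5 passages with CHIR99021 alone, and cells that lacked *Tcf7l1* as well (ETR-tKO) after 5 passages in N2B27 with no inhibitor. Per the study's methods, all lines were routinely kept in CHIR99021 with LIF and moved to 2i for a short period before assay. On that account 2i-p5 against 2i sets 5 passages in 2i against a short period there after CHIR99021 with LIF. Each condition had 3 libraries, apart from *Etv5*-KO at N16h with 2. The study's methods mention a lost library of RGd2 at N16h, but the labels and the count table give 3, and these were used.

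The libraries of a group came from different lines, which matters for imprinted genes. In each of the 5 RGd2 conditions 2 libraries were from the parental line and 1 from RGd2-2, a clonal line derived from it. Every mutant library came from a line grown from 1 CRISPR-edited cell: clones c28, c33 and c36 for *Rbpj*-KO (each in both cultures), clones c16, c17 and c1 for *Etv5*-KO (c17 and c1 in both cultures), and a different clone for each ER-dKO and ETR-tKO library. The p-values between conditions therefore measure the spread between these lines and libraries. In the tests between lines each side is 1 line sampled in several cultures. Those p-values measure the spread between cultures and libraries of the same line, and not the spread between clones.

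Imprinted genes are transcribed mainly from the copy inherited from 1 parent. The choice is kept by DNA methylation at an imprinting control region, which the ZFP57-TRIM28 complex shields when the rest of the genome loses methylation. Loss of methylation at such a region can switch a gene on from both copies or switch it off altogether, depending on the cluster, and ESC lines are known to vary in imprint state between clones and after long culture in 2i. RNA counts carry no allele information, and imprint state itself was not measured. The words maternal and paternal below refer to the copy each gene is known to be expressed from where it is imprinted. For some members, such as *Ube3a*, that holds only in certain tissues, so such genes may be expressed from both copies in these cells.

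Gene counts per library ranged from 5986857 to 71439411 with a median of 29940141, and the shallowest library was RGd2-2 in 2i. Among the targeted genes, *Etv5* lay between 9.76 and 30.7 FPKM in the 11 libraries labelled *Etv5*-mutant and between 88.5 and 156 in the other 21, and *Tcf7l1* did not overlap either. *Rbpj* lay between 2.72 and 9.88 in the 12 libraries labelled *Rbpj*-mutant and between 9.80 and 55.7 in the other 20, so the ER-dKO library labelled ERc9, at 9.88, was not separated from unedited cells by its *Rbpj* level; the ER-dKO count and the fold changes of *Peg10*, *Nnat*, *H19*, *Meg3* and *Snrpn* are given below with and without it. Naive markers summed to 799 to 836 FPKM in RGd2 2i and 51.9 to 56.0 at N72h. FPKM (fragments per kilobase of gene and library total) is a level per library total, whereas log2 fold changes are scaled to spike-in RNA, so ratios of FPKM and fold changes need not match.

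Of the 38 genes, 31 reached a mean of 1 FPKM in at least 1 condition, and 19 stood at 1 FPKM or above in all 32 libraries. The 7 that never reached that mean were *Dlk1*, *Usp29*, *Magel2*, *Airn*, *Peg13*, *Rasgrf1* and *Kcnk9*; the last had no count in any library. Of the 31, 11 had their highest condition mean at N72h and 8 in CHp2. *Peg10*, a retrotransposon-derived gene of placental development, spanned the widest absolute range, from 6.24 to 267 FPKM. *Impact* (29.9 to 116) and *Cd81* (22.4 to 66.0), the latter a tetraspanin of the cell surface, were among the members with high levels in every library. *Copg2* (10.8 to 19.8), *Ube3a* (6.68 to 12.7), *Trappc9* (3.31 to 6.10), *Inpp5f* (1.88 to 4.49) and *Commd1* (2.21 to 3.62) had narrow ranges over the 32 libraries. Each of these was nonetheless called in at least 1 comparison.

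The clonal line RGd2-2 differed from its parent at a set of maternally expressed genes, in the same direction in nearly every culture. *Cdkn1c*, a maternally expressed inhibitor of cyclin-dependent kinases (chromosome 7, 143458339-143461050, mm10), read 7.93 and 7.68 FPKM in the parental libraries in 2i and 0.491 in RGd2-2. In the remaining cultures the parental and RGd2-2 values were 4.82 and 4.72 against 0.574 in 2i-p5, 19.4 and 18.8 against 2.86 in CHp2, 25.4 and 21.7 against 2.27 at N16h, and 7.38 and 4.92 against 1.62 at N72h. RGd2-2 was the lowest library in each of the 5 cultures and never overlapped the parental pair. Across 26 libraries, with a coefficient for each condition and each line, *Cdkn1c* was lower in RGd2-2 by a log2 fold change of -2.87 (SE 0.16, edgeR adjusted p = 6.76e-21).

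*Phlda2*, a maternally expressed gene that restrains placental growth and lies beside *Cdkn1c*, followed the same pattern. Its parental values were 8.81 and 7.19 FPKM in 2i, 4.53 and 5.56 in 2i-p5, 7.58 and 6.52 in CHp2, 9.17 and 11 at N16h, and 14.4 and 17.6 at N72h. RGd2-2 read 0, 0.442, 2.36, 2.4 and 7.47 in the same order, below both parental libraries each time. The value of 0 came from the library with 5986857 counts, where 3 counts would give 0.447 FPKM. The log2 fold change was -1.71 (SE 0.18, edgeR adjusted p = 4.39e-10).

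*Grb10*, an adaptor protein that dampens insulin and growth factor signalling and is maternally expressed outside the brain, read 11.1 and 11.8 FPKM in parental cells in 2i, 4.72 and 5.67 in 2i-p5, 37.6 and 37.6 in CHp2, 12.8 and 12.4 at N16h, and 32.0 and 32.7 at N72h. RGd2-2 stood at 2.70, 1.94, 18.9, 2.47 and 13.7, again without overlap in any culture. The difference was -1.57 on the log2 scale (SE 0.12, edgeR adjusted p = 1.75e-15).

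The paternally expressed genes that passed the test moved the other way. *Nnat*, the proteolipid neuronatin, had parental values of 0.945 and 0.849 FPKM in 2i and 18.3 and 21.0 at N72h, where RGd2-2 had 2.10 and 36. The log2 fold change was 0.82 (SE 0.11, edgeR adjusted p = 3.49e-07), and RGd2-2 was above both parental libraries in all 5 cultures. *Mest*, a mesoderm-associated hydrolase, read 25.5 and 25.7 FPKM in parental 2i, 21.1 and 21.9 in 2i-p5, 41.2 and 42.0 in CHp2, 48.5 and 47.0 at N16h, and 29.9 and 31.6 at N72h. The RGd2-2 values of 47.1, 28.5, 62.4, 67.5 and 57.1 were the highest of each culture, with a log2 fold change of 0.56 (SE 0.08, edgeR adjusted p = 9.12e-07).

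**Figure D1:**
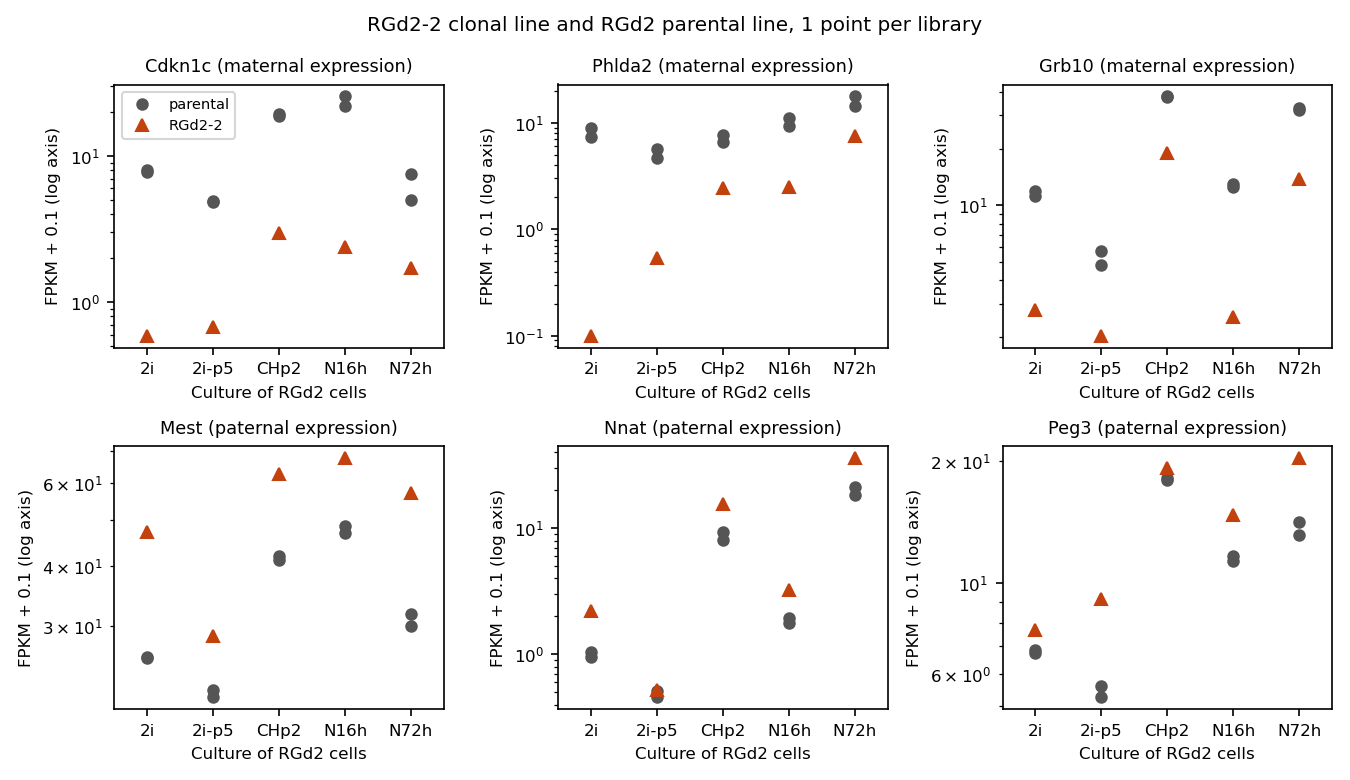
FPKM (log axis) of 6 imprinted genes in the RGd2 libraries of 5 cultures, with the 2 parental libraries and the RGd2-2 library of each culture as separate points. *Cdkn1c*, *Phlda2* and *Grb10* of RGd2-2 lie below both parental points in every culture, and *Nnat* and *Mest* lie above both.

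In all, 13 of 36 tested members passed in this comparison, against 1.15% of all 18301 genes tested. Lower in RGd2-2 were 8 maternally expressed members and *Gnas*, where 0.967% of all genes passed in that direction; higher were 4 paternally expressed members, where 0.18% of all genes did. Besides those above, the lower ones were *Meg3* (log2 fold change -0.53), *H13* (-0.52), *Gnas* (-0.46), *Rian* (-0.46), *Mirg* (-0.42) and *Igf2r* (-0.33), and the higher ones *Plagl1* (0.56) and *Peg3* (0.32). Taken per culture, the 8 maternally expressed members lay below both parental libraries in 38 of 40 gene-culture pairs. The 4 paternally expressed ones lay above both in 19 of 20. These genes were picked by the test on the same libraries, so the counts are a description only. Some of them also share a cluster, such as *Meg3*, *Rian* and *Mirg*. Among all members at 1 FPKM or more, called or not, 13 of 14 maternally expressed genes had a negative and 9 of 13 paternally expressed genes a positive log2 fold change; the median over all genes tested was -0.09. Median absolute log2 fold changes were 0.34 for the members and 0.13 for all genes. Under TMM scaling, which takes most genes as unchanged and ignores the spike-ins, 17 passed, 8 higher and 9 lower. *Peg3* lost its call when any of 10 of the 15 RGd2 libraries was left out and *Igf2r* with any of 5, so both were close to the threshold, and *Mirg* lost it without RGd2 N16h library 24, the RGd2-2 library of that culture.

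No 1 chromosome shifted as a whole: chromosome medians of the log2 fold change between RGd2-2 and the parental line ran from -0.115 to -0.064. None of the 19 regulators of imprinting examined (DNA methyltransferases, TET enzymes, *Zfp57*, *Trim28* and related genes) passed in edgeR, with 1 at an unadjusted p under 0.05 and 1 called by DESeq2. Of 22 tested genes from a second list of imprinted genes, edgeR again called 0, with 10 at an unadjusted p under 0.05 and 1 called by DESeq2. A marker of extraembryonic endoderm, *Dab2*, was higher in RGd2-2 (log2 fold change 1.18, edgeR adjusted p = 1.78e-08), and it was the 1 gene called of 6 such markers. Those 6 markers summed to 2.56 FPKM in RGd2-2 against 0.412 and 0.407 in parental cells in 2i, 2.12 against 0.760 and 0.690 at N16h, 15.2 against 5.04 and 5.39 at N72h, 2.33 against 1.37 and 1.78 in CHp2, and 0.442 against 0.861 and 0.660 in 2i-p5. Their part in the differences was not tested. In bulk RNA, fewer cells that express a gene and less RNA per cell cannot be told apart.

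Library by library, the difference of each member from the other libraries of its condition set RGd2-2 apart from the parental line. The median difference (log2 of FPKM plus 0.1) was taken over paternally and over maternally expressed members. The first minus the second was 0.47, 0.38, 0.51, 0.73 and 0.62 for RGd2-2 in 2i, 2i-p5, CHp2, N16h and N72h. It lay between -0.12 and -0.47 in the 10 parental libraries. Each value is relative to the mean of the other libraries of the condition, so the values within a condition are not independent.

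**Figure D2:**
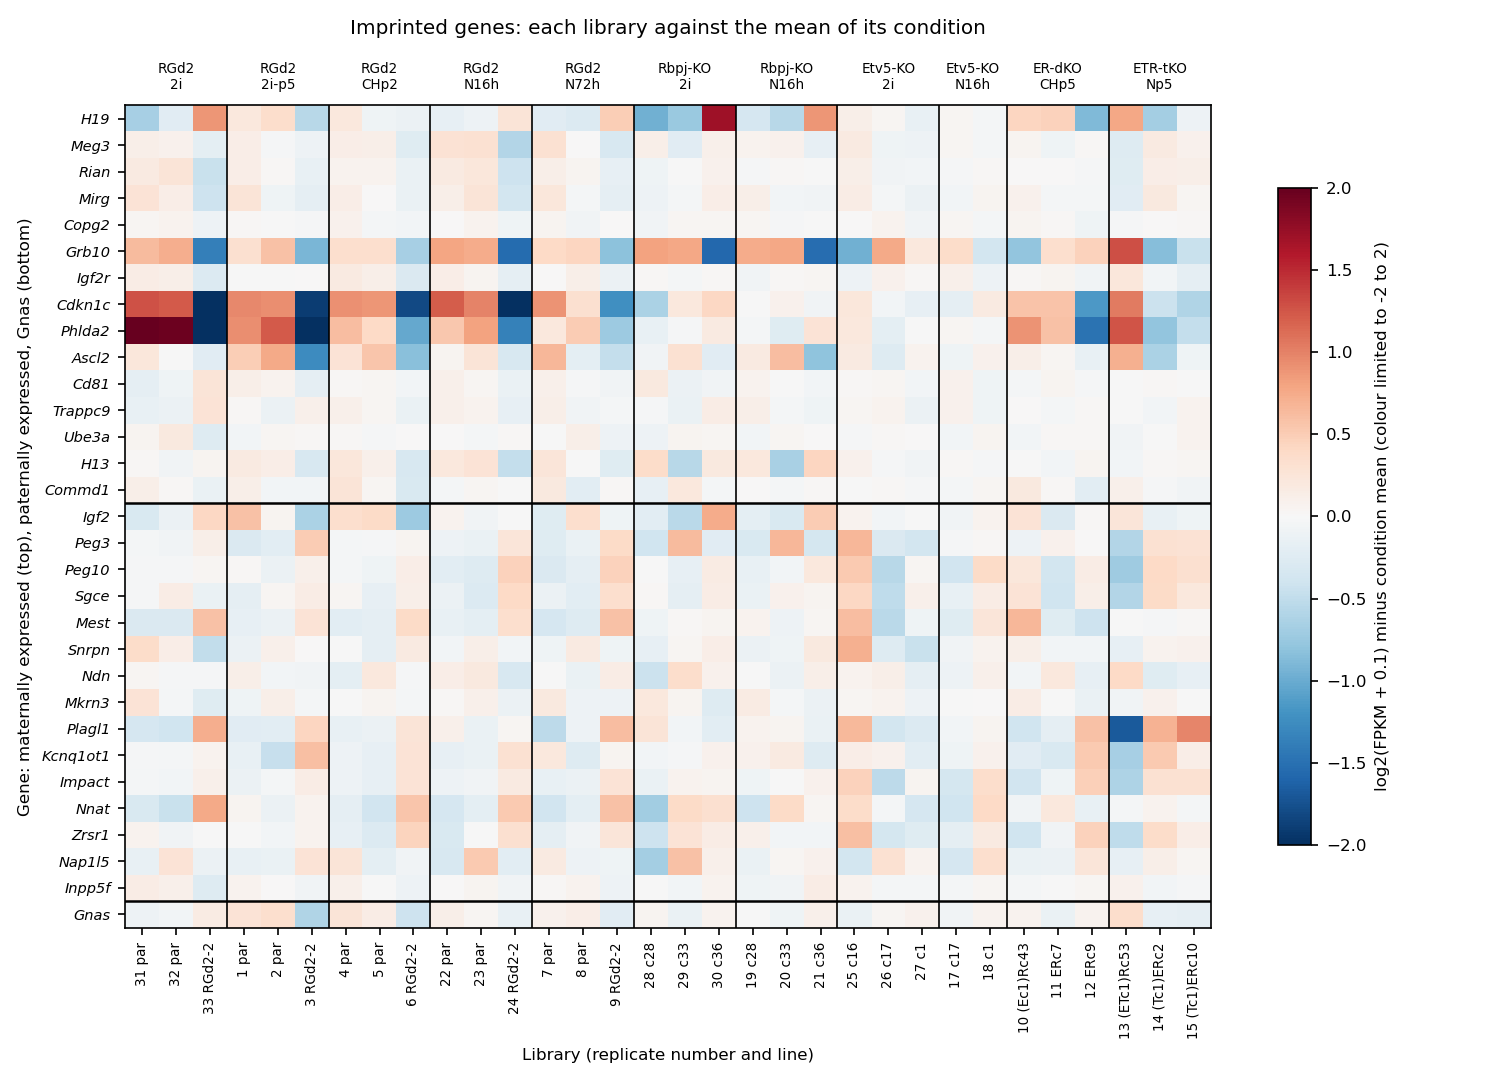
Heat map of 31 imprinted genes (rows, ordered by allele of expression) against the 32 libraries (columns, by condition), coloured by the difference between the log2(FPKM + 0.1) of a library and the mean of its condition. The RGd2-2 column of each RGd2 condition is low for *Cdkn1c*, *Phlda2* and *Grb10*, and the *Etv5*-KO c16 column and the first ETR-tKO column stand out at paternally expressed genes.

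**Figure D3:**
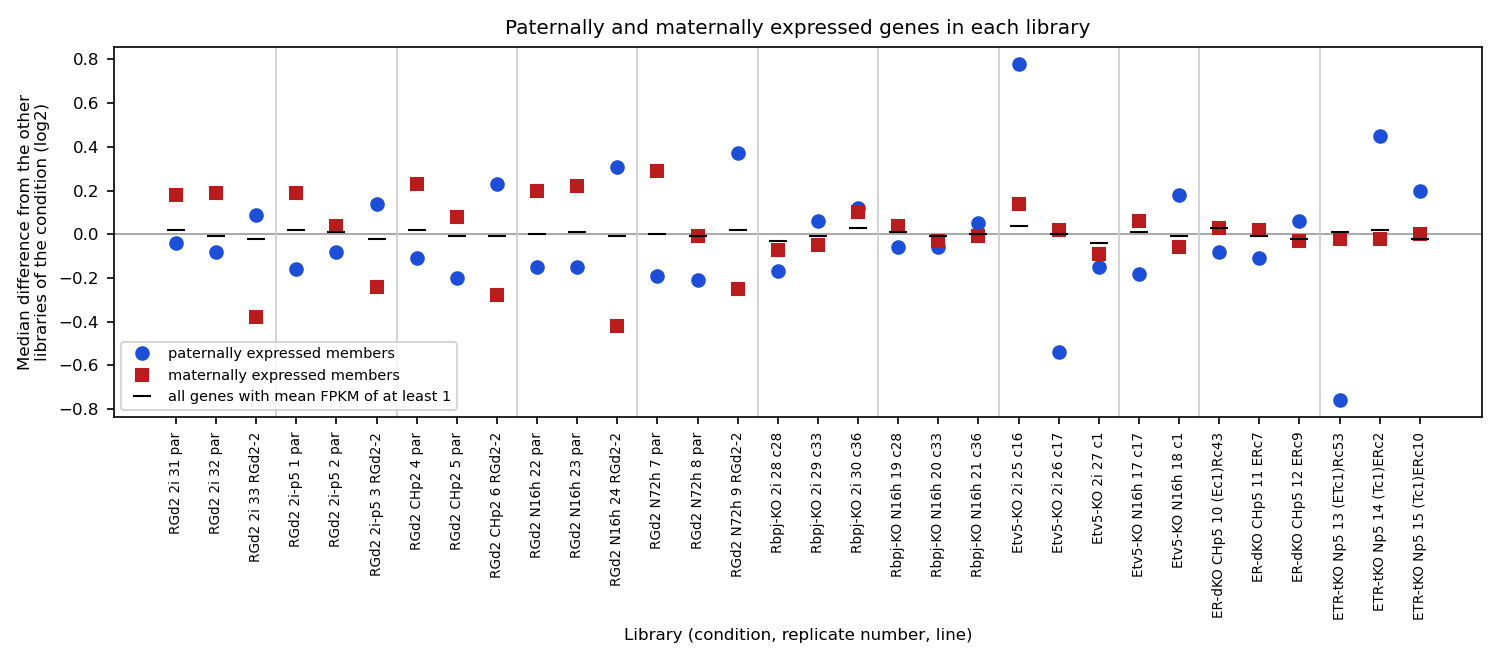
Median difference from the other libraries of the condition, on the log2(FPKM + 0.1) scale, of the paternally expressed and the maternally expressed members, 1 pair of points per library. In the 5 RGd2-2 libraries the paternal median is above the maternal one, by 0.38 to 0.73.

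Promoters of some of the genes that differed in RGd2-2 hold the hexamer bound by ZFP57, the zinc finger protein that recognises methylated imprinting control regions. The hexamer TGCCGC was searched on both strands, where it reads GCGGCA on the other, in windows of 300 bases around RefSeq transcript starts (250 before and 50 after, GRCm38.p6). It occurred in at least 1 window of 13.1% of all genes, and in 11.6% of all windows. A window was at hand for 30 of the 38 genes, and 10 of them (33.3%) held the hexamer in at least 1 window. Among the 12 genes called in RGd2-2 that had a window, 5 held it, and among the 18 other members with a window, 5 did. Median CpG counts were 15.5 for member windows and 7 for all windows, and the hexamer itself contains a CpG. These 5 windows are shown because they belong to genes that differed between the 2 lines, 2 maternally and 3 paternally expressed. They are *Nnat* at chr2:157559828-157560127 (plus strand), *Mest* at chr6:30737800-30738099 (plus), *Plagl1* at chr10:13090582-13090881 (plus), *Grb10* at chr11:12037371-12037670 (minus) and *Meg3* at chr12:109540746-109541045 (plus), each written 5′ to 3′ on the gene's strand with the hexamer in capitals. Where a gene has several annotated starts, the window shown is one that holds the hexamer. A match is a string of letters and not a measured binding site.
Nnat: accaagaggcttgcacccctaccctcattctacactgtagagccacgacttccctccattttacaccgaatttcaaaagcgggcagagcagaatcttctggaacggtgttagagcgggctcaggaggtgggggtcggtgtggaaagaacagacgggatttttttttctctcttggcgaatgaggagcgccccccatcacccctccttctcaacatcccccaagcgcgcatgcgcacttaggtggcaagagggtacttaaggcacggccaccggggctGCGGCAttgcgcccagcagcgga
Mest: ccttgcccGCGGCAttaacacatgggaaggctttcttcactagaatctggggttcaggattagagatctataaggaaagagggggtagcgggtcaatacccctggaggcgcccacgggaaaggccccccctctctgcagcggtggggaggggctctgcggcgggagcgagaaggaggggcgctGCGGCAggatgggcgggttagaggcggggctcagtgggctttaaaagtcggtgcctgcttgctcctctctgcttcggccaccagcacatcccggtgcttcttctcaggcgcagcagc
Plagl1: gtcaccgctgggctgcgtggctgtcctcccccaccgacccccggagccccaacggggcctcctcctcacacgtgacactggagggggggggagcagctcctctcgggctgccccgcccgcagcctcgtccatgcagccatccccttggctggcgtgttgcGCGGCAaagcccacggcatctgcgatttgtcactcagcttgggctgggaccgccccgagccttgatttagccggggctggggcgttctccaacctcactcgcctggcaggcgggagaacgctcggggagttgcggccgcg
Grb10: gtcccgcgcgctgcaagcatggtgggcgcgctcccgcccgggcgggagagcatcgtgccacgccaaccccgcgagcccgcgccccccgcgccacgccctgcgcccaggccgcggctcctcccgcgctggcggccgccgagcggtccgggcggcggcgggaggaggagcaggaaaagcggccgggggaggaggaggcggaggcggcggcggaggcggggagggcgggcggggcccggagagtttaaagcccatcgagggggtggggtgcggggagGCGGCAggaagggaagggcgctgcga
Meg3: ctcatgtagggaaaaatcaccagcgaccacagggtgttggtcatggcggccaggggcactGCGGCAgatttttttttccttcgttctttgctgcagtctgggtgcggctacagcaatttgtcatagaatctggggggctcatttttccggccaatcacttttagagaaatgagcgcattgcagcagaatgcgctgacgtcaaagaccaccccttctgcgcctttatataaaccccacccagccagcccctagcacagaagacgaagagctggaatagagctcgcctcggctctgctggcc

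CpG counts of the 5 windows were 17 for *Nnat*, 17 for *Mest*, 26 for *Plagl1*, 45 for *Grb10* and 13 for *Meg3*. *Mest* holds the hexamer at 2 places and the other 4 at 1. *Nnat*, *Mest* and *Plagl1* were higher and *Grb10* and *Meg3* lower in RGd2-2. For *Cdkn1c*, the member with the strongest difference, no window was at hand.

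The *Rbpj*-KO clones, each sampled in 2i and at N16h, differed at 4 of 36 tested members, against 0.273% of all genes, and 8 members had an unadjusted p under 0.05. *Grb10* read 7.08, 6.91 and 1.28 FPKM in c28, c33 and c36 in 2i, and 9.79, 10.02 and 1.96 at N16h, so that c36 was lowest in both cultures (c36 minus c28, -2.36 on the log2 scale, edgeR adjusted p over the 3 clones = 7.99e-12). *H19*, a maternally expressed noncoding RNA, read 0.157, 0.200 and 1.52 in 2i and 0.717, 0.604 and 1.79 at N16h, highest in c36 both times (c36 minus c28, 1.87, edgeR adjusted p = 0.00135). Clone c33 was the one that stood apart at the remaining pair of genes. The zinc finger gene *Peg3* read 3.94, 8.18 and 4.47 in 2i and 7.36, 14.4 and 7.13 at N16h (c33 minus c28, 0.97, edgeR adjusted p = 4.26e-05). *H13* read 4.81, 2.49 and 4.26 in 2i and 3.64, 1.96 and 4.22 at N16h (-0.95, edgeR adjusted p = 3.3e-05).

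The *H19* call was lost without *Rbpj*-KO 2i library 29 or 30, where its adjusted p rose above the threshold, and the *Peg3* call without N16h library 20. With both libraries of c36 left out, 2 members were called. *Igf2*, the paternally expressed growth factor next to *H19*, stayed under 1 FPKM in all 6 libraries, at 0.0783, 0.0415 and 0.243 in 2i (c28, c33, c36) and 0.0676, 0.0556 and 0.173 at N16h, and was not called (edgeR adjusted p = 0.115). Endoderm markers moved with clone c36: the 6 summed to 0.626, 1.04 and 7.46 FPKM in c28, c33 and c36 in 2i, and to 1.21, 1.86 and 9.61 at N16h. *Gata4*, *Gata6*, *Pdgfra* and *Dab2* of these markers were called between the clones, and their part in the *Grb10* and *H19* differences was not tested. *Mcts2*, *Zdbf2* and *Slc38a4* were called from the second list of imprinted genes; *Zdbf2* read 5.80, 6.34 and 11.9 in 2i and 8.96, 9.19 and 15.9 at N16h in clones c28, c33 and c36.

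Between the *Etv5*-KO clones c17 and c1, no member passed in edgeR, against 0.0219% of all genes (0.0109% higher and 0.0109% lower), while 5 had an unadjusted p under 0.05. DESeq2 called 1 member, and TMM scaling in edgeR called 2, *Peg10* (-0.71) and *Impact* (-0.68), both lower in c17. The values were 32.5 and 49.2 FPKM for *Peg10* in 2i, 40.9 and 69.6 at N16h, and 51.9 and 77.4 and then 31.5 and 51.8 for *Impact*, c17 before c1. At N16h, all 11 paternally expressed members at 1 FPKM or more were higher in c1 than in c17. Of 15 maternally expressed members, 6 were higher in c1. The median difference of c1 from c17, on log2(FPKM + 0.1), was 0.18 for the paternally expressed members and -0.01 for all genes at that level.

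Clone c16 has only a 2i library, so its difference from c17 and c1 could not be tested. In that library all 11 paternally expressed members were above the mean of c17 and c1. Their median difference from it was 0.78 on the log2(FPKM + 0.1) scale, against 0.14 for the maternally expressed members. Of those 15 maternally expressed members, 11 were also above that mean. The median over all genes at 1 FPKM or more was 0.04. *Peg3* read 10.2 FPKM in c16 against 5.2 in c17 and 4.95 in c1, *Snrpn* 33.9 against 17.3 and 15.1, *Plagl1* 34.5 against 17.0 and 18.3, and *Mest* 17.0 against 7.62 and 10.5. *Grb10* went the other way, at 1.70 against 5.82 and 3.93. These genes were picked after their values were seen.

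The ETR-tKO library from line (ETc1)Rc53 was the reverse at paternally expressed genes, with 11 of 13 below the mean of the other libraries of the condition. Their median difference from it was -0.76, against -0.02 for the maternally expressed members and 0.01 for all genes at 1 FPKM or more. *Peg10* read 95.9 FPKM there against 208 and 197 in the other two libraries, *Peg3* 7.83 against 14.6 and 14.4, *Plagl1* 1.99 against 10.8 and 13.1, and *Impact* 37.6 against 72.0 and 71.9. A further 3 maternally expressed genes were higher in it, *Grb10* at 5.21 against 1.11 and 1.51, *Cdkn1c* at 2.29 against 0.759 and 0.665, and *Phlda2* at 4.76 against 1.07 and 1.36. The other two lines share the prefix (Tc1) in their names, (Tc1)ERc2 and (Tc1)ERc10. With 1 library per line, line and library cannot be told apart here. In ER-dKO, the library labelled ERc9 was highest for *Plagl1* (39.1 FPKM against 19.7 and 23.1) and *Impact* (86.9 against 48.0 and 59.2) and lowest for *Cdkn1c* (0.129 against 0.647 and 0.652), *Phlda2* (0.130 against 1.09 and 0.862) and *H19* (0.0986 against 0.391 and 0.401).

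Removal of 2i for 16 h called 17 of 37 tested members, against 31.1% of all 18892 genes. Of these, 8 were higher (5.57% of all genes) and 9 lower (25.5%), and under TMM scaling 14 were called, 12 higher and 2 lower. The log2 fold changes had a median of -0.09 over the members and -0.24 over all genes. At 72 h, 19 were called against 44.8%, 15 of them higher (14.1% of all genes) and 4 lower (30.7%), with medians of 0.45 and -0.27. CHp2 gave 20 calls against 36.4%, again 15 higher (10.5%) and 5 lower (25.9%), with medians of 0.79 and -0.22. Under TMM scaling N72h had 23 calls and CHp2 21. In 2i-p5, 14 were called against 34.4%, 2 higher (1.81%) and 12 lower (32.6%), with medians of -0.26 and -0.39; here TMM scaling called 8, 7 higher and 1 lower, so the direction of the 2i-p5 list depended on the scaling. All 4 comparisons share the RGd2 2i libraries. Without 2i library 31 the N16h count was 10 and the 2i-p5 count 4, and the 2i-p5 count was 9, 5, 9 and 8 without 2i library 33 or 2i-p5 library 1, 2 or 3. With the line as a block the counts were 21, 22, 24 and 17 at N16h, N72h, CHp2 and 2i-p5.

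**Figure D4:**
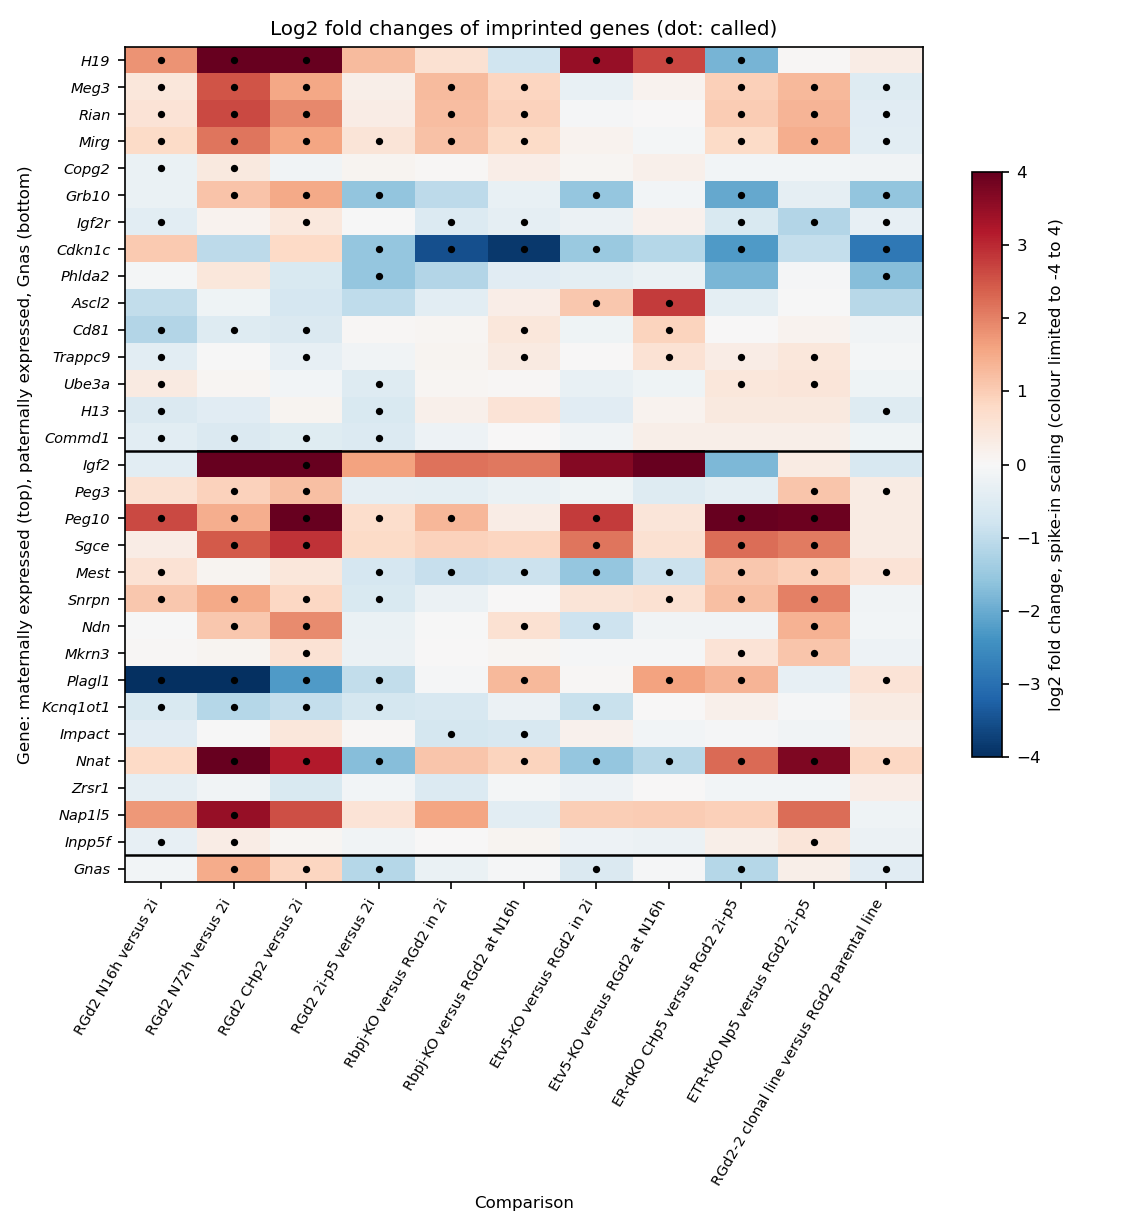
Log2 fold changes of the imprinted genes (rows) in 11 comparisons (columns), with a dot where the gene was called (edgeR adjusted p under 0.05 and a mean of at least 1 FPKM). *Peg10* is positive in the columns for CHp2, ER-dKO and ETR-tKO, at 5.02, 4.4 and 3.92, and *Plagl1* is negative in those for N16h and N72h, at -4.33 and -6.18.

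*Rbpj*-KO against RGd2 called 8 members in 2i, against 7.9% of all genes, 4 higher (3.35%) and 4 lower (4.55%). At N16h it called 12 against 15%, 8 higher (12.7%) and 4 lower (2.38%), and with TMM scaling 8, 4 in each direction. *Etv5*-KO called 11 in 2i against 24.4%, 4 higher (3.92%) and 7 lower (20.5%), with TMM scaling 8 higher and 3 lower, and 7 in all without RGd2 2i library 31. At N16h it called 8 against 23.2%, 6 higher (20.7%) and 2 lower (2.52%), with TMM scaling 5 higher and 4 lower. Set against RGd2 in 2i-p5, ER-dKO called 17 against 26.9%, 12 higher (21.4%) and 5 lower (5.44%), and 15 without the library labelled ERc9, *Cdkn1c* and *Trappc9* being lost. ETR-tKO called 15 against 30.1%, 14 higher (23.8%) and 1 lower (6.28%). Genotype and culture medium differ together in the ER-dKO and ETR-tKO comparisons and cannot be told apart, and the 2 comparisons share their controls.

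The long noncoding RNAs of the *Dlk1*-*Dio3* cluster on chromosome 12, *Meg3*, *Rian* and *Mirg*, rose together in RGd2 cells that left 2i. They lie at 109541001-109571726, 109603940-109661716 and 109729764-109749460 (mm10), are maternally expressed, and host microRNAs and small nucleolar RNAs. *Meg3* read 2.77, 2.70 and 2.21 FPKM in RGd2 2i (RGd2-2 last, here and in each RGd2 trio below), 9.67, 9.60 and 7.48 in CHp2, 4.99, 5.02 and 2.66 at N16h, and 22.9, 18.6 and 14.8 at N72h. Of these, only N16h overlapped 2i. Levels also differed between the 2i cultures: *Meg3* read 4.29, 3.86 and 3.64 in 2i-p5, above every 2i library. With the line as a block, the 2i-p5 log2 fold changes were 0.32 for *Meg3* (not called), 0.35 for *Rian* and 0.59 for *Mirg*. The log2 fold changes of *Meg3* were 2.53 at N72h (SE 0.19, edgeR adjusted p = 2.59e-15), 1.55 in CHp2 and 0.45 at N16h, where the adjusted p was 0.0477 and the call was lost in 4 of the 6 fits that left out 1 library. *Rian* rose by 2.64, 1.91 and 0.53 and *Mirg* by 2.13, 1.58 and 0.77 in the same order. Over all 32 libraries *Meg3* correlated with *Rian* at r = 0.98, with *Mirg* at 0.95 and with *Nnat*, on another chromosome, at 0.82 (log2 of FPKM plus 0.1, described without a test, since libraries share conditions and lines).

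The 3 RNAs were also raised in *Rbpj*-KO cells. In 2i, *Meg3* read 7.27, 5.67 and 7.18 FPKM in c28, c33 and c36, all above the 3 control libraries, a log2 fold change of 1.25 (SE 0.19, edgeR adjusted p = 2.85e-06). *Rian* read 22.4, 23.6 and 25.3 against 10.4, 11 and 6.70 in the controls, and *Mirg* 10.3, 10.8 and 12.2 against 5.09, 4.59 and 3.12. The groups did not overlap at either gene, and the log2 fold changes were 1.22 and 1.19. At N16h the changes were 0.87, 0.92 and 0.75 for *Meg3*, *Rian* and *Mirg*. Within *Rbpj*-KO, *Meg3* averaged 6.71 FPKM in 2i and 7.29 at N16h. Neural markers summed to between 12 and 14.2 FPKM in *Rbpj*-KO in 2i against 1.72 to 3.50 in RGd2, and to 19.5 to 21.5 against 3.30 to 4.43 at N16h. Of the 4 neural markers, 1 reached a mean of 1 FPKM in 2i and 3 did at N16h. Their part in the rise of the 3 RNAs was not tested. *Etv5*-KO cells kept *Meg3* at 2.77, 2.30 and 2.26 in 2i, within the control range, with no call against the 3 controls (-0.30) and a call against the parental libraries alone (-0.41, edgeR adjusted p = 0.0167). ER-dKO read 6.61, 6.03 and 6.52 and ETR-tKO 6.78, 9.27 and 8.65 against 4.29, 3.86 and 3.64 in RGd2 2i-p5, with *Meg3* log2 fold changes of 0.96 (0.94 without the library labelled ERc9) and 1.31. *Dlk1*, the paternally expressed Notch-family ligand of the cluster, stayed at or below 0.302 FPKM in every library.

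*Peg10* and *Sgce*, paternally expressed neighbours on chromosome 6 that start on opposite strands, were higher in CHp2 and at N72h than in 2i. *Peg10* (4747306-4760517) read 6.24, 6.26 and 6.51 FPKM in RGd2 2i, 13.3, 12.1 and 14 in 2i-p5, 229, 224 and 258 in CHp2, 39.6, 38.2 and 62.8 at N16h, and 16.7, 18.1 and 28.2 at N72h. Every culture was above 2i without overlap, CHp2 most of all, and N72h was below N16h. The log2 fold changes were 5.02 in CHp2 (SE 0.29, edgeR adjusted p = 3.8e-18), 2.63 at N16h, 1.46 at N72h and 0.72 in 2i-p5, the last lost whichever library was left out. *Sgce*, the epsilon-sarcoglycan gene, read 0.280, 0.324 and 0.252 in 2i and 2.71, 2.33 and 2.86 in CHp2 (log2 fold change 2.89, edgeR adjusted p = 1.54e-10), and 1.79, 1.69 and 2.5 at N72h (2.46). At N16h, where *Peg10* had risen, *Sgce* read 0.408, 0.359 and 0.628 and was not called. Over 32 libraries the 2 genes correlated at r = 0.77.

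The mutants carried more *Peg10* than their controls in 2i and in long culture. *Etv5*-KO read 68.5, 32.5 and 49.2 FPKM in 2i without overlap with the controls, and the log2 fold change was 2.81 (SE 0.27, edgeR adjusted p = 5.77e-11); *Sgce* rose by 2.13. *Rbpj*-KO read 16.8, 15.1 and 18.9 (log2 fold change 1.33, edgeR adjusted p = 0.000421). At N16h *Etv5*-KO, at 40.9 and 69.6, and *Rbpj*-KO, at 47.3, 50.7 and 60.6, overlapped the 3 controls and were not called (0.47 and 0.30), and *Etv5*-KO was called against the parental libraries alone (0.70, edgeR adjusted p = 0.0319). ER-dKO read 267, 176 and 253 and ETR-tKO 95.9, 208 and 197, all above the 2i-p5 controls. Those log2 fold changes were 4.4 (SE 0.28, edgeR adjusted p = 1.8e-16) and 3.92 (SE 0.27, edgeR adjusted p = 2.26e-15), the first 4.32 without the library labelled ERc9 and the second 4.22 without the (ETc1)Rc53 library.

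*H19* and *Igf2*, which share enhancers on chromosome 7 (142575529-142578143 and 142650766-142666816), were low in 2i and higher in CHp2 and at N72h. *H19* read 0.319, 0.467 and 1.13 FPKM in 2i, 1.64, 1.82 and 0.930 in 2i-p5, 12.2, 9.89 and 9.72 in CHp2, 1.73, 1.81 and 2.35 at N16h, and 11.2, 10.8 and 18.5 at N72h. CHp2 and N72h stood far above 2i, with log2 fold changes of 4.30 (SE 0.39, edgeR adjusted p = 3.16e-12) and 4.62 (SE 0.37, edgeR adjusted p = 1.98e-14), and N16h reached 1.81. *Igf2* read 0.0141, 0.0290 and 0.0876 in 2i and 1.26, 1.31 and 0.556 in CHp2 (log2 fold change 5.06, SE 0.51, edgeR adjusted p = 2.1e-11), a call that was lost without CHp2 library 4 or 5, since the mean then fell under 1 FPKM. At N72h its mean was 0.559 against 0.0436 in 2i (log2 fold change 4.22 with the line as a block, edgeR adjusted p = 4.17e-12). It was not called there, since the mean stayed under 1 FPKM. Outside CHp2 its libraries lay at or below 0.719 FPKM.

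*H19* was higher in *Etv5*-KO than in RGd2 in both cultures. It read 6.39, 6.05 and 5.35 FPKM in 2i and 10.9 and 10.3 at N16h, with no overlap with the controls. The log2 fold changes were 3.49 (SE 0.40, edgeR adjusted p = 3.59e-09) and 2.67 (SE 0.27, edgeR adjusted p = 2.48e-10). ER-dKO, which lacks *Etv5* too, was lower than its 2i-p5 controls, at 0.391, 0.401 and 0.0986 (log2 fold change -1.86, edgeR adjusted p = 0.0063), and at -1.58 without the library labelled ERc9, though the call was lost without 2i-p5 library 2. ETR-tKO read 1.91, 0.636 and 0.997 and was not called. *Igf2* averaged 0.405 and 0.385 FPKM in *Etv5*-KO in 2i and at N16h, against 0.0436 and 0.0241 in RGd2. These means are under the 1 FPKM that a call requires.

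**Figure D5:**
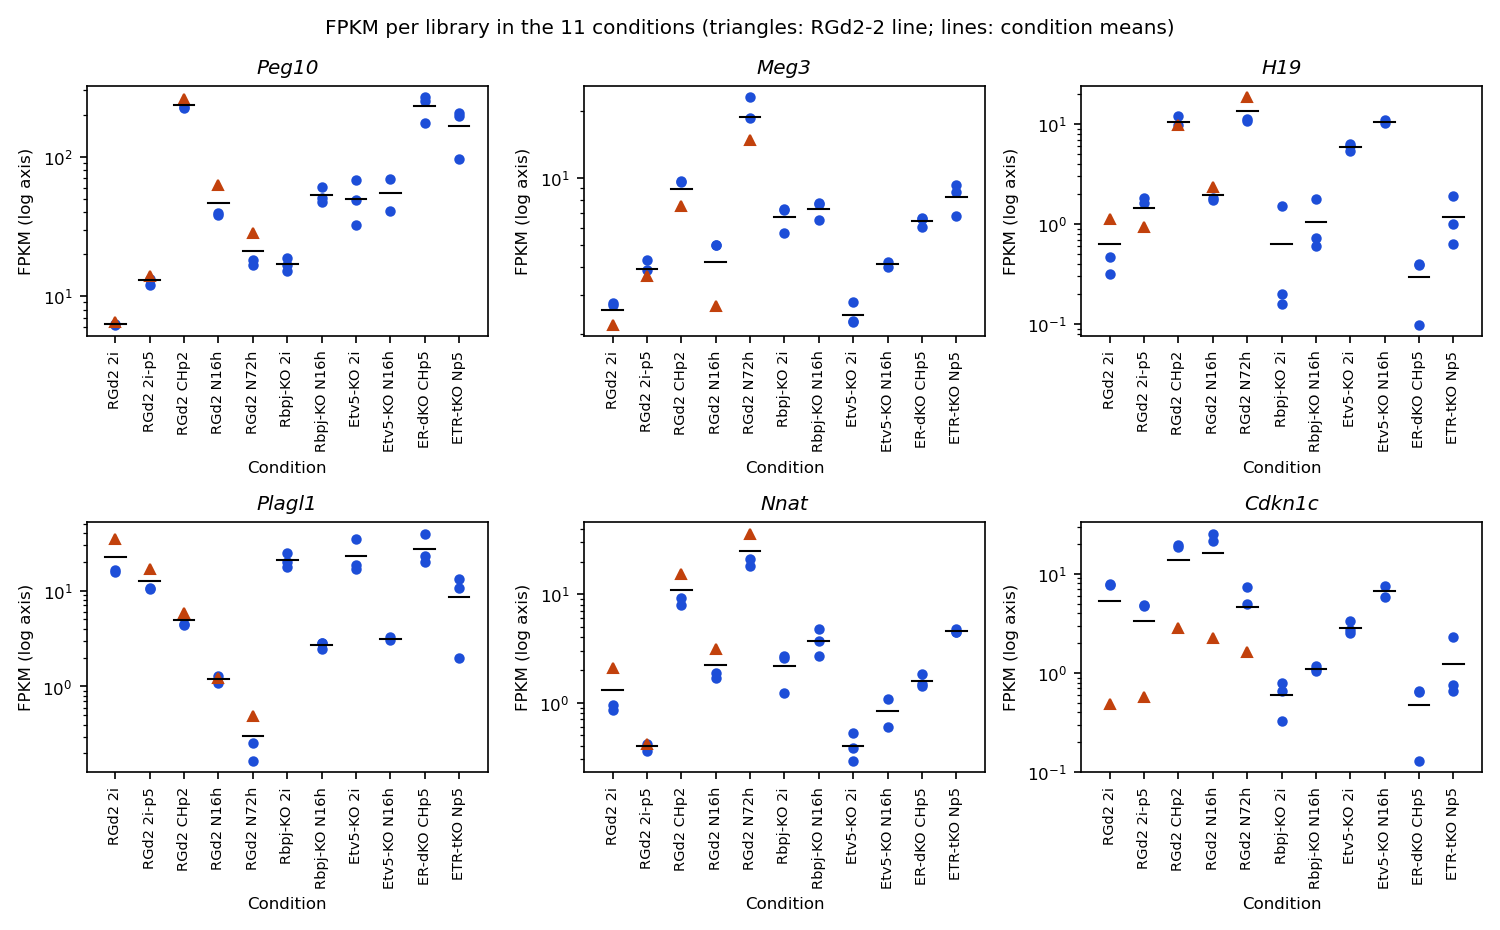
FPKM (log axis) of *Peg10*, *Meg3*, *H19*, *Plagl1*, *Nnat* and *Cdkn1c* in each library of the 11 conditions, 1 point per library. *Peg10* reaches 224 to 258 in CHp2 from 6.24 to 6.51 in 2i, and *Plagl1* falls to 0.166 to 0.486 at N72h.

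*Peg3*, a paternally expressed zinc finger gene on chromosome 7 (6703892-6730431), read 6.76, 6.63 and 7.57 FPKM in RGd2 2i, 17.9, 18.1 and 19.1 in CHp2 and 13.1, 14.1 and 20.2 at N72h. Neither culture overlapped 2i, with log2 fold changes of 1.21 (SE 0.26, edgeR adjusted p = 0.000151) and 0.92 (SE 0.26, edgeR adjusted p = 0.00198). At N16h the values were 11.6, 11.2 and 14.6, a log2 fold change of 0.61 that was not called in the fit without a line term and was called with the line as a block (0.57, edgeR adjusted p = 0.000347). In 2i-p5 it read 5.149, 5.48 and 9.04 and overlapped 2i. ETR-tKO, at 7.83, 14.6 and 14.4, was 1.12 above 2i-p5 (SE 0.26, edgeR adjusted p = 0.000571), 1.39 without the (ETc1)Rc53 library. *Usp29*, its paternally expressed neighbour, stayed at or below 0.407 in every library.

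*Plagl1*, a paternally expressed zinc finger gene of growth control on chromosome 10, had the largest fall of the members over the 10 condition comparisons. It read 16.5, 15.6 and 34.5 FPKM in 2i, 10.5, 10.7 and 16.7 in 2i-p5, 4.36, 4.48 and 5.82 in CHp2, 1.29, 1.09 and 1.23 at N16h and 0.166, 0.255 and 0.486 at N72h. The order was the same in the parental line and in RGd2-2, and CHp2, N16h and N72h did not overlap with each other or with 2i. The log2 fold changes were -2.27 in CHp2, -4.33 at N16h (SE 0.41, edgeR adjusted p = 8.9e-12) and -6.18 at N72h (SE 0.50, edgeR adjusted p = 4.88e-14). *Rbpj*-KO, at 2.86, 2.83 and 2.48, and *Etv5*-KO, at 3.02 and 3.30, were above all 3 controls at N16h. The *Rbpj*-KO difference of 1.30 (edgeR adjusted p = 0.0336) lost its call whichever library was left out, and the *Etv5*-KO difference of 1.61 (edgeR adjusted p = 0.00534) did without *Etv5*-KO library 18. Naive markers were higher in the same mutants, summing to 499 to 548 FPKM in *Rbpj*-KO and 653 to 703 in *Etv5*-KO at N16h against 341 to 356 in RGd2, and their part in these differences was not tested.

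*Nnat* rose in CHp2 and at N72h. RGd2 read 9.25, 7.96 and 15.5 FPKM in CHp2 and 18.3, 21.0 and 36 at N72h against 0.945, 0.849 and 2.10 in 2i, log2 fold changes of 3.17 (SE 0.32, edgeR adjusted p = 6.67e-11) and 4.37 (SE 0.28, edgeR adjusted p = 2.86e-17). It was lowest in 2i-p5, at 0.413, 0.359 and 0.418 (-1.69, edgeR adjusted p = 0.0341), a call lost with any of 5 of the 6 libraries left out. From that level ER-dKO, at 1.5, 1.84 and 1.41, and ETR-tKO, at 4.46, 4.78 and 4.45, were higher by 2.27 (SE 0.55, edgeR adjusted p = 0.00105; 2.33 without the library labelled ERc9) and 3.73 (SE 0.46, edgeR adjusted p = 1.19e-08). *Nap1l5*, paternally expressed from a small gene within an intron of another, also rose at N72h, from 0.0878, 0.150 and 0.0906 to 1.92, 1.55 and 1.57 (3.49, SE 0.37, edgeR adjusted p = 6.81e-11). Neural markers summed to 44.2 to 50.4 FPKM at N72h against 1.72 to 3.50 in 2i, and mesendoderm markers to 68.4 to 72.1 in CHp2 against 5.95 to 6.76. Of the 4 markers on each list, 1 reached a mean of 1 FPKM, so each sum stands mainly for 1 gene. The mesendoderm markers had a median log2 fold change of 1.09 and a median absolute value of 2.66, so not all of them rose. How far the members' changes follow these markers was not tested.

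*Snrpn*, the small nuclear ribonucleoprotein gene of the *Snrpn*-*Ube3a* cluster, was higher at N16h (1.07, edgeR adjusted p = 5.33e-05), at N72h (1.52), in CHp2 (0.84), in ER-dKO (1.21, and 1.23 without the library labelled ERc9) and in ETR-tKO (2.02). *Ndn*, of the same cluster, was higher in CHp2 (1.90), at N72h (1.08) and in ETR-tKO (1.39, edgeR adjusted p = 1.11e-07). *Ube3a*, the ubiquitin ligase that is imprinted in neurons, changed by at most 0.53 in any called comparison. *Cd81*, at 42.9, 45.9 and 58.4 FPKM in 2i, fell to 26.1, 25.0 and 22.4 at N16h without overlap (-1.18, SE 0.11, edgeR adjusted p = 2.64e-12). *Mest* fell in *Etv5*-KO in 2i, to 17.0, 7.62 and 10.5 from 25.5, 25.7 and 47.1 (-1.54, SE 0.25, edgeR adjusted p = 4.47e-06), and its log2 fold changes were -0.93 and -0.88 in *Rbpj*-KO in 2i and at N16h. *Igf2r*, which clears IGF2 from the cell surface, was lower in ETR-tKO, at 7.75, 6.37 and 5.86 against 17.6, 17.5 and 17.7 (-1.18, SE 0.14, edgeR adjusted p = 4.43e-09). *Ascl2*, a transcription factor of trophoblast, read 3.12 and 3.55 in *Etv5*-KO at N16h against 0.544, 0.647 and 0.400 (2.79, SE 0.28, edgeR adjusted p = 2.65e-10). Trophectoderm markers summed to 4.25 to 4.77 there against 1.94 to 2.48. Of the 5 trophectoderm markers tested, 1 reached a mean of 1 FPKM, and their part was not tested.

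*Cdkn1c*, *Phlda2* and *Grb10* could be compared between conditions only with the line in view, because RGd2-2 lay far below its parent. *Cdkn1c* was not called at N16h, at N72h or in CHp2 in the fit without a line term (1.05, -1.04 and 0.80). With the line as a block it was higher at N16h (1.26, edgeR adjusted p = 1.66e-09) and in CHp2 (1.07, 5.73e-07) and lower at N72h (-0.46, 0.0305). With the 2 parental libraries alone the changes were 1.30, 1.03 and -0.69, all called. *Phlda2* at N72h was 0.45 without and 0.90 with the block (edgeR adjusted p = 0.000139). In 2i-p5 the log2 fold changes from 2i were -1.56 for *Cdkn1c*, -1.55 for *Phlda2* and -1.58 for *Grb10*, and their groups overlapped in each case at RGd2-2. These calls were lost in 4, 2 and 4 of the 6 fits that left out 1 library. Other calls that the block added were *Nnat*, *Peg3*, *Zrsr1* and *Impact* at N16h, *H13* at N72h, *Mest*, *Zrsr1* and *Impact* in CHp2, and *Peg3*, *H19* and *Rian* in 2i-p5, and it removed *Copg2* at N16h.

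Every mutant library had less *Cdkn1c* than the parental libraries it was set against. *Rbpj*-KO clones read 0.330, 0.665 and 0.788 FPKM in 2i and 1.10, 1.17 and 1.04 at N16h, below both parental libraries (7.93 and 7.68, then 25.4 and 21.7) each time. RGd2-2, at 0.491 and 2.27, fell within the clones' range in 2i and above it at N16h. The log2 fold changes against RGd2 were -3.51 (SE 0.79, edgeR adjusted p = 0.00158) and -3.86 (SE 0.65, edgeR adjusted p = 1.25e-05). *Etv5*-KO read 3.31, 2.71 and 2.52 in 2i and 5.91 and 7.55 at N16h. In 2i its change was -1.48 (edgeR adjusted p = 0.0359), lost in 4 of the 6 fits that left out 1 library, and at N16h it was called against the parental libraries alone (-1.61, edgeR adjusted p = 1.04e-09) and not against all 3 controls (-1.14). ER-dKO read 0.647, 0.652 and 0.129 with a log2 fold change of -2.27 (edgeR adjusted p = 0.0491); without the library labelled ERc9 the change was -1.96 and no longer called (adjusted p = 0.113), and against parental libraries alone it was -2.95. The call was lost with any of 5 of the 6 libraries left out. ETR-tKO was called against the parental libraries alone (-1.64, edgeR adjusted p = 7.04e-05) and not against all 3 controls (-0.96). *Phlda2* was called against the parental libraries alone in *Rbpj*-KO in 2i (-1.38) and in ER-dKO (-2.56), and *Grb10* in *Rbpj*-KO in 2i (-1.39). Since RGd2-2 reached similar levels with no mutation at these loci in its label, clonal derivation and genotype cannot be told apart for these 3 genes. Every mutant library came from a clone, and other members, such as *Meg3*, *Mest* and *Nnat*, also differed between RGd2-2 and its parent. How far clonal derivation enters the mutant differences of the other members was not tested.

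The response to 16 h without 2i was compared between genotypes directly, in the fit without a line term. Libraries of the same line in 2i and at N16h were therefore not paired. For *Rbpj*-KO no member passed in edgeR, against 3.08% of all genes (2.96% higher, 0.122% lower), with 5 of 37 at an unadjusted p under 0.05 and 1 called without *Rbpj*-KO 2i library 28; TMM scaling called 2. For *Etv5*-KO, 7 passed against 29.9%, 5 higher (29.5%) and 2 lower (0.402%). *Peg10*, already high in 2i, rose less in *Etv5*-KO (difference of log2 fold changes -2.34, edgeR adjusted p = 1.01e-05), and *Sgce*, at 1.96, 0.977 and 1.55 FPKM in *Etv5*-KO in 2i and 0.515 and 0.654 at N16h, differed by -1.51 (edgeR adjusted p = 0.00957). Clone c16 is in the *Etv5*-KO 2i group but has no N16h library. Without c16, *Peg10* differed by -1.99 and *Sgce* by -1.23, both still called. *Mest* (1.12), *Snrpn* (0.62) and *Ndn* (0.78) were then called as well. With TMM scaling of all libraries 1 member was higher and 6 lower, so the sign of the smaller differences depended on the scaling. Without RGd2 2i library 31 the count was 4.

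Genes of the machinery that keeps imprints were called as well. Of 19 regulators, 16 were called at N72h (84.2%, against 44.8% of all genes), 4 higher and 12 lower. CHp2 called 13 (68.4% against 36.4%, 2 and 11), 2i-p5 17 (89.5% against 34.4%, 1 and 16) and N16h 8 (42.1% against 31.1%, 5 and 3). Shares by direction are given above. A call needs a mean of 1 FPKM, which 18 or 19 regulators reached, whereas the shares cover all genes tested. Median log2 fold changes in 2i-p5 were -0.55 for the regulators and -0.39 for all genes, and TMM scaling was not applied to the regulators. *Prdm14*, a repressor of DNA methyltransferases in naive cells, fell by 5.93 at N72h, 3.72 in CHp2 and 2.83 at N16h on the log2 scale. *Dnmt3b*, a de novo methyltransferase, rose by 3.41 at N72h (from 32.2 to 38.7 FPKM in 2i to between 436 and 455) and changed by -1.06 in 2i-p5. *Dnmt3l*, its cofactor, rose by 2.79 at N16h, and *Zfp57* changed by -2.66 at N72h. In the mutants, 6 and 9 were called in *Rbpj*-KO in 2i and at N16h (31.6% and 47.4%, against 7.9% and 15% of all genes). *Etv5*-KO called 12 and 9 (63.2% and 47.4%, against 24.4% and 23.2%). ER-dKO called 13 (68.4% against 26.9%) and ETR-tKO 15 (78.9% against 30.1%). *Dppa3*, which protects maternal methylation in the early embryo, changed by -4.62 in *Rbpj*-KO in 2i and by -5.52 in ER-dKO.

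From the second list of imprinted genes, *Dio3*, the paternally expressed deiodinase at the far end of the *Dlk1*-*Dio3* cluster, stood at 22.7 to 26.9 FPKM in *Etv5*-KO in 2i against 0.479 to 2.14 in RGd2 (log2 fold change 5.07, edgeR adjusted p = 4.55e-21), while *Meg3*, *Rian* and *Mirg* of the same cluster were not called in that comparison. It was also 5.01 higher in *Etv5*-KO at N16h and 2.66 higher in *Rbpj*-KO in 2i. *Calcr*, a neighbour of *Peg10* and *Sgce*, rose by 5.38 at N72h. *Slc38a4*, an amino acid transporter, changed by -4.88 in ER-dKO, and *Ddc* by -5.33 at N72h. Of the 22 tested genes on the list, 5 were called at N16h (22.7%, against 31.1% of all genes), 13 at N72h (59.1% against 44.8%), 11 in CHp2 (50% against 36.4%) and 9 in 2i-p5 (40.9% against 34.4%). *Rbpj*-KO called 2 in 2i and 2 at N16h (9.09% each, against 7.9% and 15%), and *Etv5*-KO 8 in each culture (36.4%, against 24.4% and 23.2%). ER-dKO and ETR-tKO called 9 each (40.9%, against 26.9% and 30.1%).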

How the data were processed

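RNA-seq was measured in 32 libraries of 11 conditions. Per the labels and the study's methods, the authors prepared strand-specific, ribosome-depleted libraries with spike-in RNA, although a label field names polyA RNA, used Trim Galore before alignment to mm10 (TopHat2), and deposited raw featureCounts counts per gene. Per the study's methods, counting was strand-specific and took primary, uniquely aligned reads. The deposited counts were used as they are. FPKM was computed here from the deposited counts, the gene lengths in the table and the library total. Counts whose gene had no symbol (0.0259%) stayed out of the tests.

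Libraries were scaled by the median of ratios over 52 of 92 spike-ins, those above 0 in every library. Tests were two-sided quasi-likelihood tests in edgeR 4.0.16 (R 4.3.3), adjusted by Benjamini-Hochberg across the 18892 genes in the fit, in 1 model of 32 libraries with a coefficient per condition. Lines were compared in 26 libraries of RGd2, *Rbpj*-KO and *Etv5*-KO with coefficients for condition and line (18301 genes). A gene was called at an adjusted p under 0.05 with a mean of at least 1 FPKM in either group. DESeq2 1.42.0, TMM and other filters were alternatives. Scripts were tested on simulated data: for RGd2-2, 56 of 67 genes changed 2-fold were found. At 1.5-fold, 38 of 67 were found, and 11 unchanged genes were called in the same run.

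Per-library values are given for up to 4 called members with the greatest fold change in a comparison and for the *Meg3*, *H19* and *Peg3* clusters, and any others were chosen after their values were seen. The members and lists were chosen with earlier results of these data known. The line names pair RGd2 libraries across cultures, since they are the same cell lines: deviations from the condition means correlated at -0.0335 to 0.177 between libraries of the same line and at -0.159 to 0.0245 between lines. No 2 replicates held identical values.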

Additional observations from a re-analysis of the deposited data

Results flagged for a closer look

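The response to 16 h without 2i differed between *Etv5*-KO and RGd2 at 7 of 37 tested imprinted genes (18.9%). The difference itself was tested, in the fit without a line term (edgeR adjusted p between 1.2e-06 and 0.034). Of all genes tested, 29.9% passed, 29.5% higher and 0.402% lower. Of the members, 5 were higher and 2 lower, and with TMM scaling 1 was higher and 6 lower. The differences of log2 fold changes were -2.34 for *Peg10*, -1.51 for *Sgce*, 0.56 for *Trappc9*, 0.9 for *Kcnq1ot1*, 1.07 for *Cd81*, 1.58 for *Plagl1* and 1.72 for *Ascl2*. The median of this difference over all genes tested was 0.49, so the value for *Trappc9* lay near that of the typical gene. *Plagl1* lost its call in 6 and *Kcnq1ot1* in 5 of the 11 fits that left out 1 library, and *Ascl2* in the fit without RGd2 2i library 31. With the parental RGd2 libraries alone *Plagl1* was at 1.32 (edgeR adjusted p = 0.0561). No explanation of these differences was tested.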

How the results depend on the processing

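No gene called in the reported fit changed sign under the alternatives run, but under TMM the split of 2i-p5 was 7 higher and 1 lower, and that of the *Etv5*-KO response 1 higher and 6 lower. Counts of called imprinted genes moved by over 1.5 times as follows. For N16h against 2i, DESeq2 called 11. For 2i-p5 against 2i, TMM called 8, size factors from gene counts 9 and DESeq2 7. Without the low-count filter *Rbpj*-KO in 2i called 14, the *Rbpj*-KO response 3, the *Etv5*-KO response 11 and the *Etv5*-KO clones 2. The *Rbpj*-KO response had 2 calls with TMM and 1 with size factors from gene counts. Clones c17 and c1 had 2 calls with TMM, 2 with size factors from gene counts and 1 with DESeq2. The *Rbpj*-KO clones had 2 without c36. With 1 library left out, counts ranged from 10 to 14 at N16h, 17 to 20 at N72h, 18 to 22 in CHp2, 4 to 10 in 2i-p5, 6 to 11 and 8 to 9 for *Rbpj*-KO in 2i and at N16h, 7 to 13 and 6 to 8 for *Etv5*-KO, 13 to 16 for ER-dKO, 15 to 16 for ETR-tKO, 0 to 1 and 4 to 10 for the *Rbpj*-KO and *Etv5*-KO responses, 10 to 16 for RGd2-2, 3 to 4 for the *Rbpj*-KO clones and 0 to 0 for c17 against c1. The cause of these shifts was not tested. Of 165 called values, 106 kept their call whichever library was left out and 3 lost it with each one. With the line as a replicate block the counts were 21 (N16h), 22 (N72h), 24 (CHp2) and 17 (2i-p5), and of 70 called values 69 kept their call. The alternatives with parental RGd2 libraries alone or without clone c36 were chosen after seeing the data. Depth limits the genes under 1 FPKM, mainly in the RGd2-2 library in 2i.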
